A study of Mus musculus with 24 samples.

Results

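The TRAV14 family is a group of near-identical variable (V) segments of the T cell receptor α locus, the older Vα2 family. Its clonotypes were followed here through the TCRα libraries of 24 subcutaneous tumors from 12 mice, 2 tumors per mouse. Members were all sequences assigned to a segment whose name begins with TRAV14-, TRAV14D- or TRAV14N-, without the mark for a stop codon or a shifted reading frame and with at least 2 counts. Segments whose names show that they also serve the δ chain were left out. This gave 4039 of 55689 retained TCRα sequences and, with a clonotype defined by its CDR3 amino acid sequence, V segment and J segment, 2703 of 35452 clonotypes.

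All mice were female BALB/c animals that carried tumors of CT26 cells, a colon carcinoma line (genotype CT26.CL25), in both flanks, and RNA was taken from whole tumors. In the 3 time-matched mice (6, 12 and 14) both tumors were harvested together at day 13 with neither surgery nor drug. In the other 9 mice 1 tumor was excised first, under anesthesia and with carprofen and buprenorphine as analgesics. The second was taken 11 days later. The paper's figure legends place these harvests at days 9 and 20. These time-separated mice thus share the surgery and the analgesics. Of these, mice 4, 17 and 19 received no decitabine and are called untreated. Mice 3, 11 and 20 received 0.5 mg/kg decitabine and mice 7, 10 and 16 received 2 mg/kg. Decitabine, an inhibitor of DNA methylation, was given on 5 consecutive days from 3 days after surgery, so the excised tumor of a treated mouse had not been exposed to it. Between time-matched and time-separated mice, interval, tumor age, surgery, analgesics and, in treated mice, decitabine cannot be told apart. Tumors carry the numbers 1 and 2 in the labels, with no word on which was taken first, so no direction in time is given below.

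A TCRα chain is made by joining 1 V segment to 1 of many J segments. The bases trimmed and added at the junction, together with the V and J ends, form the CDR3, the loop that lies over the bound peptide. The locus can rearrange more than once in a thymocyte, moving to V segments farther from and J segments nearer to the constant region, and TRAJ numbers fall towards the constant region. The receptors of the OT-I and OT-II transgenic mice use this V family. It should not be confused with the Vα14 chain of natural killer T cells, whose V segment is now called TRAV11.

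The family segments differed little in the V bases nearest the CDR3. The deposited sequences covered a median of 37 to 40 V bases before the CDR3 for the 4 common segments. The last 31 of these bases are shown for each, as the commonest base at each position, because most family sequences hold them. The capital marks the base that differs from TRAV14-1.
TRAV14-1: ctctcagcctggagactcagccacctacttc
TRAV14-2: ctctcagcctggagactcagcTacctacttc
TRAV14-3: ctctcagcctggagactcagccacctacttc
TRAV14N-3: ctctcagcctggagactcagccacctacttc

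Over this stretch TRAV14-2 differed from each of the other segments at 1 base, and TRAV14-1, TRAV14-3 and TRAV14N-3 did not differ. At least 100 V bases were read in 41 of the 4017 family sequences (of 4039) in which the listed CDR3 was found with V bases before it. The CDR3 of every segment began with the same bases, tgtgcagcaagtg, which read CAAS. The bases on which the authors' software assigned the segments are not given in the sources used here. In 196 of 3570 pairs of library and CDR3 nucleotide sequence with its TRAJ, more than 1 family segment was listed. These pairs held 57.5% of the family's counts, of which 97.6% lay under 1 segment.

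The clonotypes that reached 2% of the counts of any library are shown next, since they set much of what follows. The 7 CDR3 sequences came from 5 mice. Capitals mark the junctional bases, those that neither the common V end nor the common J start of these libraries accounts for.
mouse 3, TRAV14-1/TRAJ39: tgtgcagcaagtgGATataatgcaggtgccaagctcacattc
mouse 3, TRAV14-1/TRAJ24: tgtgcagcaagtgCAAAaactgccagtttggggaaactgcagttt
mouse 7, TRAV14-1/TRAJ53: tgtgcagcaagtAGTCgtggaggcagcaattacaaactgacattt
mouse 11, TRAV14-1/TRAJ45: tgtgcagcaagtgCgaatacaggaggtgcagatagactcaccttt
mouse 11, TRAV14-3/TRAJ50: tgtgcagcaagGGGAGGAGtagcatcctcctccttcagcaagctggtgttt
mouse 12, TRAV14-1/TRAJ16: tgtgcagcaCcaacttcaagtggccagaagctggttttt
mouse 17, TRAV14-1/TRAJ43: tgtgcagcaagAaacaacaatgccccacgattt

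These sequences had between 1 and 8 junctional bases. A base change inside the J end makes every base before it count as junctional, so the number is an upper value for such copies. The 24 libraries held 26623 to 846655 retained counts (median 159256). Time-matched libraries held 176171 counts or more and those of time-separated mice at most 236622. Overlaps, private shares and the shares of clonotypes compared between groups or found in another mouse were therefore computed after every library was thinned at random to 26623 counts. All other numbers of clonotypes, the use of TRAJ segments, CDR3 lengths and shares of counts rest on all retained counts. Their 95% intervals (Clopper-Pearson) cover counting error only, because reads of 1 molecule may not be independent.

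The family took a median of 5.43% of the TCRα counts of a tumor, with a range from 1.49% to 20.3%. By mean share it ranked 6th of 22 V families, behind TRAV7, TRAV3, TRAV9, TRAV6 and TRAV12, and it held a mean of 7.38% of a library's clonotypes. Among time-matched animals, tumors 1 and 2 of mouse 6 gave 6.30% and 5.43%, those of mouse 12 gave 8.32% and 5.43%, and those of mouse 14 gave 4.59% and 3.30%. Among untreated time-separated animals, mouse 4 gave 3.93% and 2.68%, mouse 17 gave 6.33% and 5.42%, and mouse 19 gave 6.06% and 2.06%. These groups overlapped. With 0.5 mg/kg decitabine, mouse 3 gave 19.6% and 20.3%, mouse 11 gave 5.81% and 11.7%, and mouse 20 gave 7.43% and 3.47%. With 2 mg/kg, mouse 7 gave 6.31% and 6.27%, mouse 10 gave 4.80% and 1.49%, and mouse 16 gave 3.59% and 2.93%. Mouse 3 stood apart with both its tumors, and the groups otherwise overlapped. The lowest share, in tumor 2 of mouse 10, had a 95% interval of 1.44% to 1.54% and the highest, in tumor 2 of mouse 3, one of 19.9% to 20.6%.

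**Figure D1:**
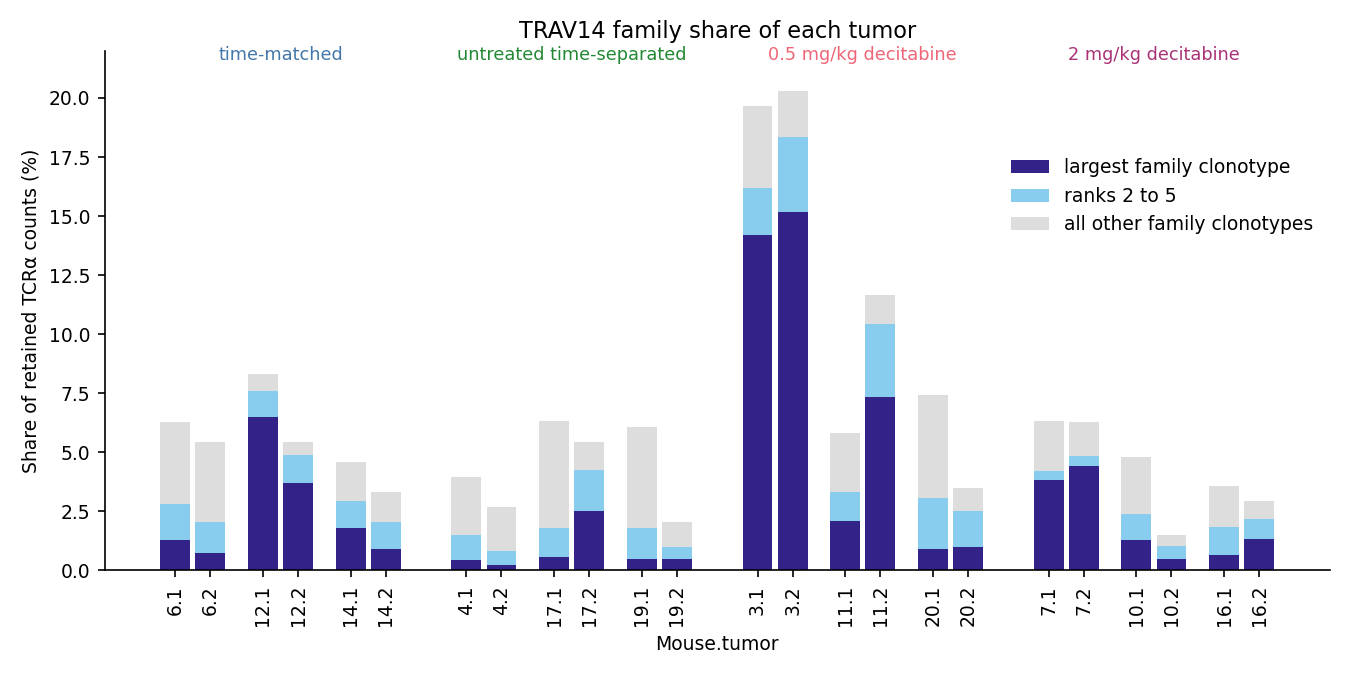
Share of retained TCRα counts (y axis, %) that each tumor (x axis, mouse.tumor) gave to the TRAV14 family, split into the largest family clonotype of that library, ranks 2 to 5 and all others. Both tumors of mouse 3 reach about 20%, mostly through 1 clonotype, while the lowest tumor (10.2) is at 1.49%.

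No group difference in the family's share passed its test. Each mouse value was the mean over both tumors, and in treated mice the excised tumor had not been exposed to decitabine. The mean of the mouse values was 5.56% ± 1.49 (SD, n = 3) in time-matched mice, 4.41% ± 1.32 (n = 3) in untreated time-separated mice, 11.4% ± 7.61 (n = 3) at 0.5 mg/kg and 4.23% ± 1.78 (n = 3) at 2 mg/kg. Time-matched mice lay 1.15 percentage points above the untreated time-separated mice (exact permutation test, two-sided, p = 0.5), and the 0.5 mg/kg mice 6.97 points above them (exact permutation p = 0.2). This second difference was 2.68 points without mouse 3 (exact permutation p = 0.3). When the largest family clonotype and the largest other TRAV clonotype of each mouse were set aside, which also lowers the total, the 0.5 mg/kg difference was 1.69 points (exact permutation p = 0.2) and the time-matched difference turned to -0.246 (exact permutation p = 0.8). The 2 mg/kg mice lay below them by 0.185 points (exact permutation p = 0.8). With the same clonotypes set aside, mice 7, 10 and 16 held 2.70%, 3.07% and 2.74% and untreated mice 4, 17 and 19 held 3.36%, 4.92% and 4.05%, without overlap, a difference of -1.27 points (exact permutation p = 0.1). With 3 mice in each group an exact permutation test cannot go below p = 0.1. Against all 9 time-separated mice (6.67% ± 5.31) the difference of the time-matched mice was -1.11 points (exact permutation p = 0.773, smallest p the design allows 0.00455), and it turned to 0.546 points without mouse 3. After adjustment over 8 group comparisons the p-values of these 4 lay between 0.533 and 0.8. In bulk tumor RNA, fewer cells of a clone and less receptor RNA per cell cannot be told apart.

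For the share of clonotypes and, with all clonotypes included, the gap between tumors, the difference between time-matched and time-separated mice was smaller than the spread between mice. After thinning, the family made up 8.02% ± 0.698 of clonotypes in time-matched mice (n = 3) and 7.64% ± 2.05 in the 9 time-separated mice (exact permutation p = 0.764). The absolute difference in share of counts between the tumors of a mouse was 1.68 ± 1.07 points in time-matched and 2.29 ± 2.03 points in time-separated mice (exact permutation p = 0.636). Without the largest family and largest other clonotype of each mouse it was 0.373 ± 0.329 and 2.10 ± 1.11 points, a difference of -1.73 (exact permutation p = 0.0273 before adjustment). In 10 of 12 mice the tumor numbered 2 had the lower share. On a log2 scale the SD of the share was 0.598 between tumors of a mouse and 0.787 between mouse means.

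Of the 6 family segments found, TRAV14-1 carried 71.1% of the family's counts, pooled over libraries of unequal depth, and 50.9% of its clonotypes. TRAV14-3 followed with 15.0% of counts and 22.9% of clonotypes. TRAV14-2 held 8.19% of counts and 14.1% of clonotypes, and TRAV14N-3 held 5.72% and 11.9%. Each of these 4 was present in all 24 libraries. The tumors of mouse 12 gave 47569 and 45934 of the 272812 pooled counts, mostly through its TRAV14-1/TRAJ16 clonotype. TRAV14-3 held more counts than TRAV14-1 in both tumors of mice 6 and 14 and in tumor 1 of mouse 20, and fewer in all other tumors. TRAV14D-1 and TRAV14D-2 were seen in 2 libraries each, with 11 and 33 counts. TRAV14N-1 and TRAV14N-2 had no retained count, which allows at most 3 counts in a library, or 0.000354% to 0.0113% of its counts.

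TRAV14-1 ranged from 0.923% to 19.7% of a library (median 2.50%), with its highest value in tumor 2 of mouse 3. TRAV14-3 ranged from 0.0689% to 2.97% (median 0.661%), TRAV14-2 from 0.0524% to 1.57% (median 0.335%) and TRAV14N-3 from 0.0220% to 1.79% (median 0.253%). The highest tumors of these were tumor 2 of mouse 11, tumor 1 of mouse 17 and tumor 1 of mouse 20. TRAV14-3 held 1.48% ± 1.22 of counts in time-matched mice (n = 3) and 0.810% ± 0.590 in the 9 time-separated mice. In a test of all 52 TRAV segments with a mean share of at least 0.1%, none passed after adjustment (smallest adjusted p = 0.236), and 2 segments, or 3.85%, had an unadjusted exact permutation p under 0.05. Of the 4 family segments 0 did, with unadjusted exact permutation p-values from 0.259 for TRAV14-3 to 0.859 for TRAV14-2.

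Single clonotypes made up most of the family's counts in several mice. The largest family clonotype of a library took between 7.74% and 78.3% of the family's counts, and the 5 largest took a median of 62.6%. In mouse 3 the TRAV14-1/TRAJ39 clonotype shown above held 14.2% of all TCRα counts in tumor 1 and 15.2% in tumor 2, with 95% intervals from 13.9% to 14.5% and from 14.9% to 15.5%. It was the largest clonotype of tumor 1 and the second largest of tumor 2. When the largest family clonotype of each library was set aside, the family's share in the tumors of mouse 3 was 5.44% and 5.10%, and the range over all 24 tumors narrowed to between 1.01% and 6.52%. The exact CDR3 sequence of this clonotype was also listed with 2 counts in tumor 1 of mouse 16, and those of the largest clonotypes of the other 11 mice were found with the same segments in no other mouse. Those of mice 16 and 17 were each listed in 1 library of another mouse with a different segment assignment within the family.

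Taking for each mouse the family clonotype with the highest mean share over its tumors, some mice held it at like shares in both tumors and others almost only in 1. In mouse 12, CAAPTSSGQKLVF (TRAV14-1/TRAJ16) took 6.51% and 3.70% of counts and was the fifth largest TCRα clonotype of each tumor. The TRAV14-1/TRAJ53 clonotype of mouse 7 took 3.81% and 4.42%. In mouse 20, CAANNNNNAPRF (TRAV14-3/TRAJ43) took 0.901% and 0.969%. These 3 mice came from different groups.

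In the other time-matched mice the largest clonotypes lay within 2-fold between tumors. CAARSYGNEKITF (TRAV14-3/TRAJ48) in mouse 6 held 1.29% and 0.740%, and the TRAV14-3/TRAJ32 clonotype of mouse 14 held 1.79% and 0.918%. Several time-separated mice had wider ratios. In mouse 10, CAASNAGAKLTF (TRAV14-1/TRAJ39), whose sequence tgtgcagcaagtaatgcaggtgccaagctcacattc has 0 junctional bases, held 1.27% of tumor 1 and 0.00465% of tumor 2, a 272-fold difference. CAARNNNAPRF (TRAV14-1/TRAJ43) was the largest family clonotype of both mouse 4 and mouse 17. The tumors of mouse 4 held it at 0.427% and 0.104%, those of mouse 17 at 0.266% and 2.49%. The nucleotide sequences in these mice were not the same, and that of mouse 4 is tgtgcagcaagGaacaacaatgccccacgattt.

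In mouse 11 the TRAV14-1/TRAJ45 clonotype took 2.09% of tumor 1 and 7.34% of tumor 2, and the TRAV14-3/TRAJ50 clonotype took 0.182% and 2.76%, a 15.2-fold difference. In mouse 16, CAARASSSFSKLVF (TRAV14-1/TRAJ50) took 0.644% and 1.33%. The TRAV14-1/TRAJ24 clonotype of mouse 3 took 0.630% and 2.78%. In mouse 19 the largest family clonotype, TRAV14-1/TRAJ47, held 0.472% of tumor 1 with no count in tumor 2, at least 137-fold lower there when 3 counts are taken as the floor of a library. Its sequence is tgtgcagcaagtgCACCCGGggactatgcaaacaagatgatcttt. In mouse 20, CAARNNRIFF (TRAV14-1/TRAJ31) was at 0.811% of tumor 2 and had no count in tumor 1, at least 369-fold lower. Which of these tumors was the earlier one is not given by the labels.

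Overlap of family clonotypes between the tumors of a mouse was high in every time-matched mouse and ranged widely in the others. The Morisita-Horn index runs from 0, where the tumors share no clonotype, to 1, where they hold the same clonotypes at the same shares, and is dominated by large clonotypes. Over family clonotypes alone it was 0.899, 0.986 and 0.931 in time-matched mice 6, 12 and 14. It was 0.293, 0.292 and 0.0592 in untreated mice 4, 17 and 19, below every time-matched mouse. With 0.5 mg/kg it was 0.987, 0.785 and 0.379 in mice 3, 11 and 20. With 2 mg/kg it was 0.985, 0.168 and 0.520 in mice 7, 10 and 16. Mice 3 and 7, in which 1 clonotype held most family counts in both tumors, lay among the time-matched mice. The difference between 3 time-matched and 9 time-separated mice was 0.443 (exact permutation p = 0.0773, adjusted 0.4). Without mouse 3 or mouse 7 it was 0.504 (exact permutation p = 0.0364 and 0.0424 before adjustment), and over all removals of a single mouse it lay between 0.388 and 0.504 with exact permutation p-values up to 0.182, the highest without mouse 12. Against the 3 untreated mice it was 0.725, at the smallest p of 0.1 that an exact permutation test of 3 against 3 allows.

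Without the largest family clonotype of each mouse, the separation widened. The index then was 0.891 to 0.992 in time-matched mice and 0.0668 to 0.446 in the 9 time-separated mice, and the groups no longer overlapped. The difference was 0.700 (exact permutation p = 0.00455 before adjustment, the smallest the design allows). Other TRAV clonotypes separated the groups as well. Their index was 0.942 to 0.995 in time-matched and 0.156 to 0.892 in time-separated mice with all clonotypes, and 0.902 to 0.997 and 0.119 to 0.781 without the largest. Clonotypes seen in a single tumor of their mouse, here called private, held 14.1% ± 7.87 of the family's counts in time-matched (n = 3) and 40.5% ± 24.6 in time-separated mice. Here mouse 19 was highest at 88.7% and mouse 12 lowest at 5.31%, and the difference of -26.4 points did not pass (exact permutation p = 0.1, adjusted 0.4). It had an exact permutation p of 0.0485 without mouse 3 and of 0.273 without mouse 12. Without the largest clonotypes it was -31.3 points (exact permutation p = 0.0273 before adjustment). Private clonotypes of other TRAV segments held 8.83% ± 4.85 of those segments' counts in time-matched and 24.99% ± 12.4 in time-separated mice, which is given without a test.

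**Figure D2:**
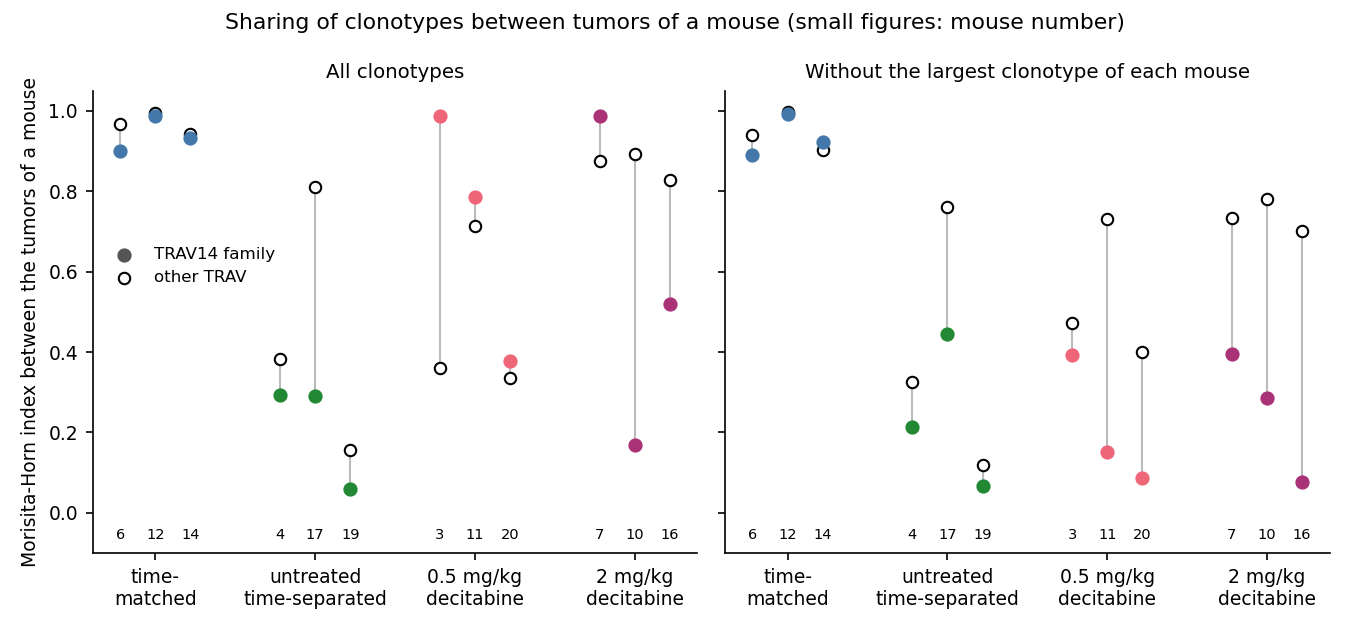
Morisita-Horn index (y axis, 0 to 1) between the tumors of each mouse for TRAV14 family clonotypes (filled points, coloured by group) and other TRAV clonotypes of the same tumors (open points), with all clonotypes (left) and without the largest family and largest other clonotype of each mouse (right). On the right the filled points of the 9 time-separated mice lie at 0.446 or below and those of the time-matched mice at 0.891 or above.

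Against the other TRAV clonotypes of the same tumors, the family's overlap showed no difference past the test with all clonotypes included. The index was 0.607 ± 0.357 for the family and 0.688 ± 0.295 for other TRAV clonotypes (n = 12), a difference of -0.0808 ± 0.336 (exact sign-flip permutation test over mice, two-sided, p = 0.420). The family minus other difference was 0.628 in mouse 3 and -0.723 in mouse 10. Without the largest family clonotype and the largest other clonotype of each mouse, the values were 0.410 ± 0.342 and 0.655 ± 0.269. The family was then lower by 0.245 (exact permutation p = 0.00146 before adjustment), and it was lower in every mouse except mouse 14. The clonotypes set aside were those with the highest share summed over both tumors of a mouse, a choice that can favor shared ones. The largest family clonotype of a library held a mean of 37.1% of the family's counts. The family also holds fewer clonotypes than the other TRAV segments together. Whether these points bear on the index was not tested, so the lower value cannot be read as less sharing alone.

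The family's J partners lay farther from the constant region than those of other TRAV clonotypes. With each clonotype of a library counted once, the mean TRAJ number was 36.4 ± 3.10 for the family and 32.7 ± 2.20 for other TRAV clonotypes (n = 12). The difference of 3.68 ± 3.76 passed its test (exact sign-flip permutation p = 0.00488, adjusted over 5 such comparisons 0.0122) and was above 0 in 10 of 12 mice. It was -0.125, -1.34 and 0.272 in time-matched mice 6, 12 and 14 and lay between 0.194 and 9.84 in the 9 time-separated mice. TRAJ41 and higher took 43.5% ± 13.9 of family clonotypes against 31.6% ± 6.10, more in 9 of 12 mice. TRAJ21 to TRAJ40 took 36.8% ± 15.3 against 44.0% ± 7.03, more in 1 of 12 mice. TRAJ1 to TRAJ20 took 19.7% ± 9.67 against 24.4% ± 7.16, more in 6 of 12 mice.

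A large clonotype in these tables is accompanied by many sequences that differ from it by 1 base, and those with another amino acid sequence or segment counted as clonotypes of their own. Of the 4039 family sequences, 1757, or 43.5%, matched a sequence of the same library, V family and TRAJ with at least 20 times the counts, at the same CDR3 or 1 base away, and together these held 4.40% of the family's counts. Over all TCRα sequences 49.98% did. With them merged, an alternative chosen after seeing the data, the difference in TRAJ number was 3.19 ± 1.94 and above 0 in 12 of 12 mice (exact permutation p = 0.000488, the smallest 12 mice allow).

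The 4 common segments had different J partners, in an order that followed their places in the locus. In the RefSeq annotation of the C57BL/6J assembly GRCm38.p6, TRAV14N-3 lies farther from the TRAJ cluster than TRAV14-1, TRAV14-2 and TRAV14-3, which lie nearer in this order; the BALB/c locus may differ. The mean TRAJ number was 28.3 ± 4.81 for TRAV14N-3, 35.0 ± 4.56 for TRAV14-1, 37.1 ± 3.44 for TRAV14-2 and 43.5 ± 3.49 for TRAV14-3 (n = 12). TRAV14-3 was above each of the other 3 segments in 12 of 12 mice. TRAV14-1 was above TRAV14N-3 in 10 of 12 mice, and TRAV14-2 above TRAV14-1 in 7 of 12, so that this last pair was not separated. With near-identical sequences merged the values were 28.7, 34.6, 38.7 and 44.2. TRAV14-3 was then above TRAV14-2 in 11 of 12 mice, and TRAV14-2 above TRAV14-1 in 10 of 12.

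TRAV14-3 clonotypes used TRAJ41 or higher in 65.0% ± 16.0 of cases and TRAJ1 to TRAJ20 in 5.48% ± 4.55. For TRAV14N-3 these shares were 21.8% ± 12.3 and 34.8% ± 14.8. By mean share over mice, the commonest partners of TRAV14-3 were TRAJ50, TRAJ48 and TRAJ56, and those of TRAV14N-3 were TRAJ31, TRAJ12 and TRAJ30. TRAV14-2 was joined most often to TRAJ52, TRAJ18 and TRAJ49, and TRAV14-1 to TRAJ53 (7.63% ± 13.6), TRAJ39 (6.34% ± 15.3) and TRAJ45 (6.19% ± 11.6). The SD exceeded the mean for these 3, for TRAJ50 with TRAV14-3 (8.85% ± 11.8) and for TRAJ12 and TRAJ30 with TRAV14N-3 (8.35% ± 9.38 and 5.25% ± 9.72). These orders between segments were seen in the data first and are given without a test.

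**Figure D3:**
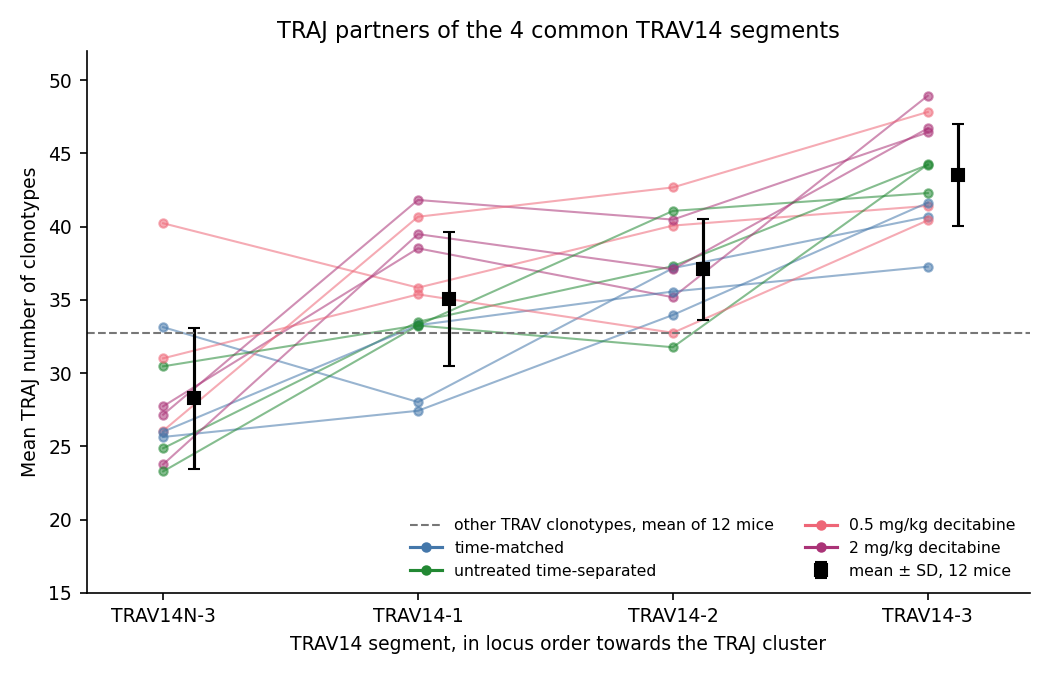
Mean TRAJ number of clonotypes (y axis) for the 4 common TRAV14 segments (x axis, in the order in which they approach the TRAJ cluster), 1 line per mouse coloured by group, with mean ± SD over 12 mice (black squares) and the mean of other TRAV clonotypes (dashed line). TRAV14-3 is highest in every mouse, and mouse 3 has the highest TRAV14N-3 value, 40.2.

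Of 39 TRAJ segments tested, 5, or 12.8%, differed in their share of clonotypes between the family and other TRAV clonotypes (exact sign-flip permutation test, adjusted p under 0.05), and all 5 were lower in the family. TRAJ30 made up 2.61% ± 2.81 of family clonotypes and 7.57% ± 4.77 of others (n = 12, exact permutation adjusted p = 0.0495). TRAJ22 made up 1.41% against 3.70%, TRAJ17 1.11% against 3.09%, TRAJ21 0.776% against 1.96% and TRAJ6 0.278% against 1.21%. TRAJ21 was lower in the family in 10 of 12 mice and each of the other 4 in 11 of 12. At an unadjusted p under 0.05, 14 segments differed. The count rested on single mice: it was 1 without mouse 10 or mouse 12 and 0 without mouse 11 or mouse 20.

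The 5 commonest J segments of the family were TRAJ53 with 6.40% of clonotypes, TRAJ39 with 5.69%, TRAJ50 with 5.49%, TRAJ45 with 5.47% and TRAJ12 with 4.39%. None passed the adjusted test, and their levels were uneven between mice. TRAJ39 ranged from 0.398% to 48.3% with a median of 1.33%, and its highest value was that of mouse 3. TRAJ53 reached 33.7% in mouse 7, TRAJ45 26.3% in mouse 11 and TRAJ50 19.9% in mouse 16, in each case the J segment of that mouse's largest family clonotype. After merging, these maxima in mice 3 and 11 were 23.6% for TRAJ39 and 9.38% for TRAJ45. Those of TRAJ53 and TRAJ50 then lay in other mice, at 11.5% in mouse 19 and 9.13% in mouse 11.

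With near-identical sequences merged, 7 of 40 TRAJ segments (17.5%) passed the test, 4 of them among the first 5. TRAJ30, TRAJ22, TRAJ21 and TRAJ6 were again lower in the family, and TRAJ37 (3.46% against 1.98%), TRAJ45 (4.57% against 2.67%) and TRAJ56 (4.45% against 2.58%) were higher. TRAJ17 was not among them.

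**Figure D4:**
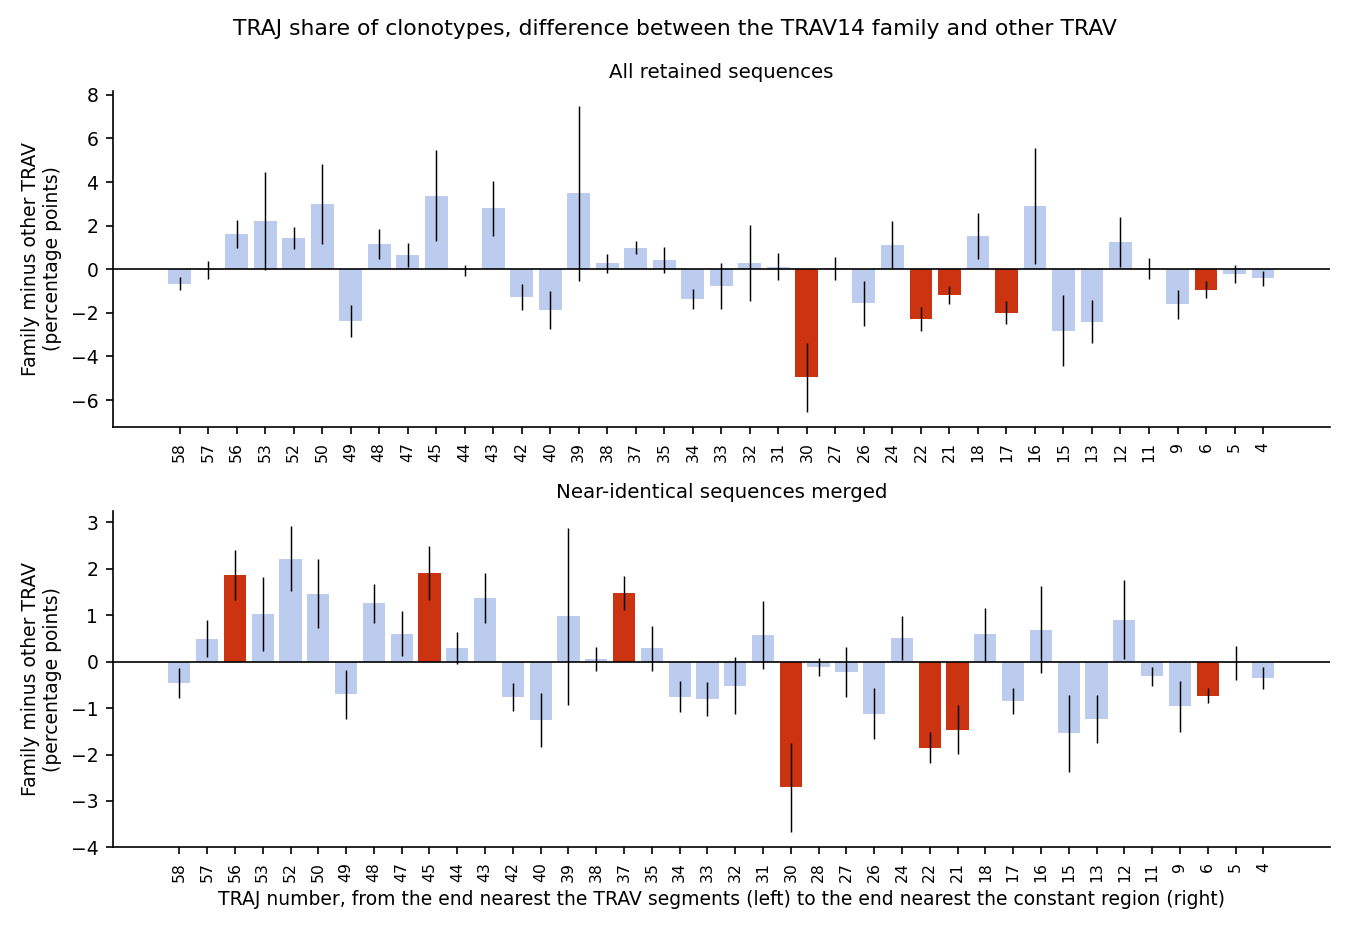
Share of clonotypes that used each TRAJ segment in the TRAV14 family minus that in other TRAV clonotypes (y axis, percentage points, mean of 12 mice with the standard error), ordered along the locus (x axis), with all retained sequences (top) and near-identical sequences merged (bottom, a different y scale). Red bars passed the adjusted test: 5 at the top, all below 0, and 7 at the bottom, of which 3 lie above 0 on the left side and 4 below 0 on the right.

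The differences in CDR3 length and in the share of non-productive sequences between the family and other TRAV clonotypes did not pass their tests over all retained sequences. The CDR3 was 13.5 ± 0.260 residues long in family clonotypes and 13.6 ± 0.134 in others (exact sign-flip permutation p = 0.300), and it was 0.165 residues shorter in the family after merging (exact permutation p = 0.00195 before adjustment). Sequences marked as non-productive (a stop codon or a shifted frame) made up 34.3% ± 7.09 of the family's sequences with at least 2 counts and 36.7% ± 4.97 of others (exact permutation p = 0.126). The difference of -2.44 points was -3.16 after merging (exact permutation p = 0.00732 before adjustment) and -0.427 with single counts kept (exact permutation p = 0.749). With a minimum count of 5 it was -5.98 (exact permutation p = 0.00928 before adjustment).

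Most family clonotypes were seen in a single mouse. Of 2703, 2528 (93.5%) were found in 1 mouse, 138 in 2, 30 in 3, 6 in 4 and 1 in 6. Thus 6.47% were found in 2 or more mice, and 8.26% of the 32270 other TRAV clonotypes were. At equal depth, 14.9% ± 3.36 of a mouse's family clonotypes were found in another mouse, against 19.5% ± 2.18 of other TRAV clonotypes (n = 12, exact sign-flip permutation p = 0.00439, adjusted 0.0122), lower in 11 of 12 mice. The difference of -4.54 points was -2.44 points after merging (exact permutation p = 0.0278 before adjustment). This direction depended on how near-identical segments were treated. When clonotypes were defined by V family in place of V segment, which joins copies of a family throughout the locus, 26.1% of family and 23.0% of other clonotypes were found in another mouse, a difference of 3.09 points (exact permutation p = 0.0767).

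Recurrent clonotypes had fewer junctional bases. After merging, nucleotide sequences of clonotypes found in 1 mouse had a median of 3 junctional bases and 11.5% had 0. In clonotypes of 2 mice the median was 2 with 26.5% at 0, and in those of 3 or more mice it was 1 with 41.8% at 0. Within each of 12 mice the mean was lower in recurrent than in the other sequences, by 3.23 ± 1.32 bases on average. With all retained sequences the median was 5 for clonotypes of 1 mouse, 2 for those of 2 mice and 1 for those of 3 or more, and the mean was lower in recurrent sequences by 5.13 ± 2.38 bases, again in 12 of 12 mice. After merging, mouse 3 had the most junctional bases in its sequences found in no other mouse, 8.51. Mouse 16 then had the smallest difference, with 3.72 against 2.37. With all retained sequences mouse 3 again had the most, 11.2, and mouse 4 the smallest difference, with 5.57 against 3.81.

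**Figure D5:**
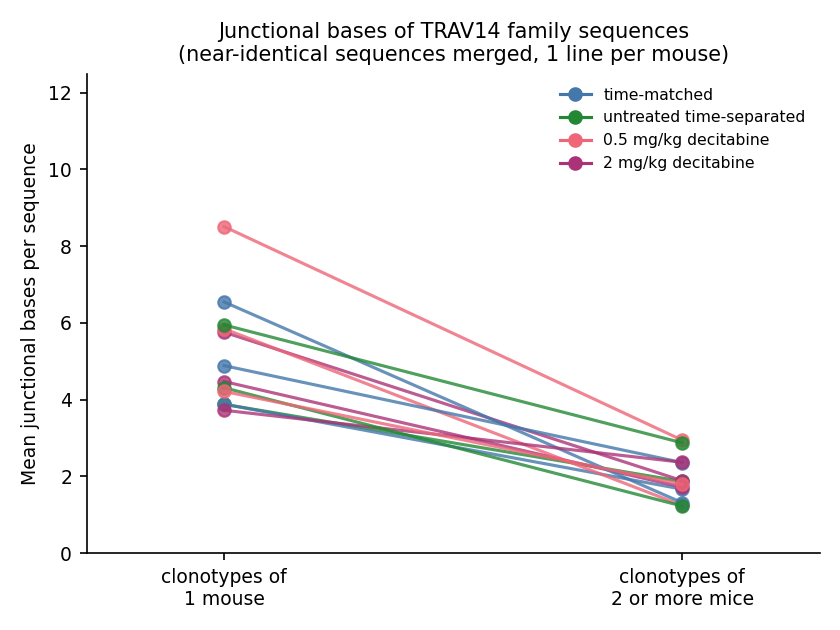
Mean number of junctional bases per TRAV14 family sequence (y axis) in each mouse (lines, coloured by group) for clonotypes of 1 mouse (left) and of 2 or more mice (right), after merging near-identical sequences. All 12 lines fall, to between 1.23 and 2.94 bases on the right.

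The sequences of 3 recurrent clonotypes are shown because several mice held the same nucleotides. Capitals again mark junctional bases, and a sequence without capitals has none. The first clonotype is given in 3 of its versions.
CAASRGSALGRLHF, version of 5 mice: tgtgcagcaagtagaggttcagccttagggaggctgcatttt
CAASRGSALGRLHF, version of mouse 4: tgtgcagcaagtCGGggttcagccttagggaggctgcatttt
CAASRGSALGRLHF, version of mice 14 and 19: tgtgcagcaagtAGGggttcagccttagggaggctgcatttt
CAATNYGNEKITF: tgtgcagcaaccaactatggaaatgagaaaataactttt
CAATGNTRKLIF: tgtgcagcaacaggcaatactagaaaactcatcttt

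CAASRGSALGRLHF, of TRAV14-2 and TRAJ18, the J segment that natural killer T cells join to TRAV11, was the most widespread, in 6 mice and 11 libraries. Tumors 1 and 2 of mouse 4 held it at 0.412% and 0.0205%, those of mouse 14 at 0.319% and 0.215%, those of mouse 17 at 0.0885% and 0.00602%, and mouse 19 at 0.207% in tumor 1 alone. Mice 10 and 12 held it at 0.00236% to 0.0183%. It was seen in all 3 untreated time-separated mice, in 2 of 3 time-matched mice, in 1 of 3 mice at 2 mg/kg and in none at 0.5 mg/kg; whether depth bears on this was not tested. In mouse 4 no family clonotype differed more between the tumors in share of all TCRα counts. The version with 0 junctional bases held 1811 of its 2751 counts.

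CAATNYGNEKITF (TRAV14-3/TRAJ48) and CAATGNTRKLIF (TRAV14-1/TRAJ37) were each found in 4 mice with 1 nucleotide sequence and 0 junctional bases. The first ranged from 0.000699% to 0.0751% of a library and the second from 0.00524% to 0.0205%. A TRAV14-1/TRAJ12 clonotype was found in mice 12, 14, 19 and 20 in 3 nucleotide versions of 3 junctional bases each, with its highest share, 0.195%, in tumor 1 of mouse 19. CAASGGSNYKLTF (TRAV14-3/TRAJ53), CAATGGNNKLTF (TRAV14-3/TRAJ56) and a TRAV14N-3/TRAJ45 clonotype were each found in 4 mice and in 1 tumor of each. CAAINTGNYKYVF (TRAV14-1/TRAJ40) was found in 3 mice and reached 0.837% in tumor 1 of mouse 3. Under any family segment, the CDR3 of the TRAV14N-3/TRAJ45 clonotype and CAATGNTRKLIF were each listed in 6 mice, so that a clonotype counted by segment was found in fewer mice than its CDR3.

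Over the 12 mice, the V families whose share of counts ran most nearly parallel to that of TRAV14 were TRAV7 (Spearman's rho 0.657, Pearson's r 0.247), TRAV20 (0.464 and 0.874) and TRAV2 (0.441 and 0.392). These are descriptions over 12 points. Shares of 1 library sum to 100%, and TRAV20 had a median share of 0.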

How the data were processed

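TCRα libraries were made from whole-tumor RNA with a SMART-Seq mouse TCR kit that adds unique molecular identifiers, and were processed by the authors with Cogent NGS Immune Profiler version 2.0. For each tumor the authors deposited a list of receptor sequences with V and J segment, CDR3, a mark for stop codons and shifted frames, and a count. Per the study's methods this software used the identifiers when it called clonotypes, and the methods speak of reads, so whether a count is a read or a collapsed molecule is not settled. The genome build is not given in the sources used here. The deposited counts were used unnormalized. Unmarked sequences with at least 2 counts were kept, of which 625, with 0.529% of counts, had no TRAV segment. The TCRβ lists were not used.

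Values were averaged over the tumors of a mouse, and the mouse was the replicate. Groups were compared by exact permutation tests and the family with other TRAV clonotypes by exact sign-flip tests over 12 mice, all two-sided, with Benjamini-Hochberg adjustment over 8, 5, 39 (TRAJ) and 52 (TRAV) tests. These replaced the tests of the study's methods because groups held 3 mice. TRAJ segments needed a mean of 0.5% of clonotypes and TRAV segments 0.1% of counts. Thinning to 26623 counts used 20 draws. Floors were 3 counts.

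Clonotypes were named if they were the largest, or had the largest difference in share between tumors, in a mouse, reached 2% of a library, or were among the 8 found in most mice (ties, here among those of 3 mice, broken by summed share of counts). The 5 commonest TRAJ segments of the family, all that passed the test, and the 3 V families most like it by Spearman's rho were also named. The family, lists and tests were chosen with earlier results of these data known.

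Alternatives changed the minimum count (1 or 5), kept marked sequences or the segment shared with the δ chain, defined clonotypes by V family or by CDR3 nucleotides, weighted clonotypes by counts, changed the floors, dropped the largest clonotype, thinned all measures or none, used log2 shares with 0.1% added, took tumors as separate samples and left out each mouse. Merging near-identical sequences, and the test of the TRAJ difference by group, were chosen after seeing the data. The TRAJ test was checked on simulated data for 12 mice: of 40 segments, 8 were shifted 4-fold and 8 recovered, with 3 others called. Scripts ran in Python 3.11.15 with scipy 1.17.1 for statistics, pandas 2.3.3 and numpy 2.4.6 for tables, and matplotlib 3.10.9 for figures.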

Additional observations from a re-analysis of the deposited data

Results flagged for a closer look

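Mouse 3, given 0.5 mg/kg decitabine, lay far above the other 8 time-separated mice, with a mean family share of 19.96% of counts and 12.1% of clonotypes after thinning. These stood out among 10 gaps examined, those of the highest and lowest mouse in 5 measures, by Dixon's ratio of gap to range, which chance takes past its limit in about 1 group in 20. Its TRAV14-1/TRAJ39 clonotype made up 72.3% and 74.9% of the family's counts in its tumors. The excised tumor of this mouse had not been exposed to the drug.

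The family's excess in TRAJ number over other TRAV clonotypes was set apart by an unadjusted test between groups that did not pass after adjustment. It was -0.396 ± 0.837 in 3 time-matched mice and 5.04 ± 3.31 in 9 time-separated mice, above 0 in 1 of 3 and 9 of 9. The difference of -5.43 had an exact permutation p of 0.0227 and an adjusted p of 0.114 over 5 such tests, all added after the values were seen. With near-identical sequences merged it was -1.33 (exact permutation p = 0.336), with an excess of 1.47, 2.60 and 2.52 in time-matched mice 6, 12 and 14, all above 0. With all retained sequences the exact permutation p was 0.0727, 0.0727 and 0.0545 without mouse 6, 12 or 14.

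TRAV14D-3/DV8, the segment shared with the δ chain and left out of the family, had 249 counts in 24 sequences of 14 libraries, of which 120 lay in tumor 1 of mouse 19.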

How the results depend on the processing

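The difference in family share between time-matched and the 9 time-separated mice ranged from -1.77 to 0.546 when 1 mouse was left out, turning without mouse 3, and was 0.0201 on log2 shares. The 2 mg/kg minus untreated difference ranged from -1.21 to 0.546 and turned without mouse 10, 16 or 17, and the time-matched minus untreated difference ranged from 0.490 (without mouse 12) to 1.95 (without mouse 14). The gap between tumors, -0.610, ranged from -1.22 (without mouse 12) to -0.166 (without mouse 11), and the difference in share of clonotypes, 0.378, from 0.141 (without mouse 10) to 0.939 (without mouse 3), with 0.0345 after merging. With the tumors as separate samples, which drops the pairing of tumors within a mouse, the 0.5 mg/kg minus untreated difference of 6.97 had an exact permutation p of 0.0368, and it was 2.68 to 9.93 without 1 mouse, lowest without mouse 3. Without the largest family and other clonotype of each mouse, the time-matched minus untreated share was -0.246, the 2 mg/kg minus untreated share -1.27, the gap between tumors -1.73 (exact permutation p = 0.0273), the overlap difference 0.700, the private share -31.3 and the overlap of the family minus other clonotypes -0.245. Leaving out 1 mouse gave an overlap difference of 0.388 to 0.504 and a private share difference of -30.4 to -20.4, with an exact permutation p of 0.0485 without mouse 3.

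The number of TRAJ segments called (5) was 8 with a minimum count of 5, 2 with marked sequences kept, 10 with the δ-shared segment kept, 11 with all measures thinned and 0 to 6 without 1 mouse. The non-productive difference was -5.98 with a minimum count of 5 (exact permutation p = 0.00928), -0.427 with a minimum of 1 (exact permutation p = 0.749), -3.16 after merging and -3.25 to -1.55 without 1 mouse (exact permutation p = 0.0283 without mouse 10). After merging, the CDR3 length difference was -0.165. The difference in share found in another mouse turned to 3.09 with clonotypes by V family and was -2.44 after merging. The group difference in TRAJ number was -3.54 with a minimum count of 5 (exact permutation p = 0.0591), -7.02 with a minimum of 1 (exact permutation p = 0.0182), -10.5 with clonotypes weighted by counts (exact permutation p = 0.0318), -1.33 after merging and -6.04 to -4.83 without 1 mouse. The difference in TRAJ number itself kept its direction in all 22 settings, from 3.12 to 5.27, with exact permutation p-values, before adjustment, up to 0.0386 (clonotypes weighted by counts). In all, 261 of 285 tested values kept direction and side of the unadjusted threshold, and 34 of 42 counts of segments lay within 1.5 times the reported count or were equal to it. The causes of these changes were not tested. Depth limits what can be said of rare clonotypes: the smallest library held 26623 counts.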
